A study of Mus musculus with 2 samples.

Results

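The cells described here are mouse melanoma macrophages in which Fcrls, Folr2, Cbr2 and Gas6 together scored highest among 6 marker sets. They were chosen in the table of normalized single-cell values from cells with Csf1r, the receptor for colony stimulating factor 1, and without Cd3d, Cd3e, Cd3g (T cell receptor complex), Ncr1 (NK cells), Flt3 or Cd209a (dendritic cells). For each of these gated macrophages the mean value of 6 sets of 4 genes was computed, each mean was z-scored over the gated cells of both libraries, and a cell belonged to the group when the set of Fcrls, Folr2, Cbr2 and Gas6 had the highest z-score. The other sets were led by Arg1, by Mgl2 and MHC class II genes, by interferon-induced genes, by Chil3 and Vcan, and by cell cycle genes. The rule found 284 cells among 2954 gated macrophages and 10075 analysed cells. They are called Folr2 and Fcrls macrophages, and the remaining 2670 gated cells are called the other macrophages.

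YUMMER1.7, a BRAF-mutant melanoma line of the mouse that provokes an immune response, was grown as tumors for 11 days in male C57BL/6 mice aged 8 weeks that were WT or Siah2-/-. Siah2 encodes a ubiquitin ligase, and the study asked how its absence in the host alters the immune infiltrate. CD45-positive leukocytes were sorted, fewer CD45-negative cells were added back to them, and 1 droplet library was made and sequenced on its own lane for each genotype. With 1 library per genotype, genotype, tumor pool, library and lane cannot be told apart, no test across samples was possible, and every interval below is a 95% interval that covers counting error only. Siah2 transcripts were counted in gated macrophages of both libraries, at 11.8 and 13.4 CPM, that is UMIs per 1e+06 UMIs. The sources used here do not give the deleted part of the gene, and a tag read at the 3′ end outside that part checks nothing, so the second library is called the library labelled Siah2-/-.

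Tissue-resident macrophages are long-lived cells that settle in organs, take up dying cells and debris, recycle iron and lipids, and release chemokines and growth factors. Monocytes that enter from blood differentiate into other macrophages with higher antigen presentation or inflammatory gene expression, and tumors usually hold both kinds. Folr2 encodes folate receptor beta, a surface protein of perivascular and other resident macrophages. Fcrls encodes an Fc receptor-like protein best known from microglia, Cbr2 encodes a carbonyl reductase, and Gas6 encodes a bridging ligand that links phosphatidylserine on dying cells to the receptors Tyro3, Axl and Mertk. "Resident-like" refers to these transcripts, and the origin of the cells was not measured.

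The identifiers of the 4 genes that chose the cells are ENSMUSG00000015852 (Fcrls), ENSMUSG00000032725 (Folr2), ENSMUSG00000025150 (Cbr2) and ENSMUSG00000031451 (Gas6). Their promoters are shown because these 4 genes define the cells, and cells with several of the 4 transcripts follow from that choice. Each sequence is the 250 bases before a RefSeq transcript start in GRCm38.p6, written 5′ to 3′ on the gene's own strand, which is minus for all 4. Capitals mark GAGGAA, a core of the sites that the macrophage factor PU.1 binds, and TGCTGA, the core of sites of MAF factors, each searched on both strands (TTCCTC and TCAGCA on the other). The windows are chr3:87263525-87263774 for Fcrls, chr7:101857191-101857440 for Folr2 (the first of 2 windows of that gene), chr11:120732022-120732271 for Cbr2 and chr8:13494536-13494785 for Gas6.
Fcrls: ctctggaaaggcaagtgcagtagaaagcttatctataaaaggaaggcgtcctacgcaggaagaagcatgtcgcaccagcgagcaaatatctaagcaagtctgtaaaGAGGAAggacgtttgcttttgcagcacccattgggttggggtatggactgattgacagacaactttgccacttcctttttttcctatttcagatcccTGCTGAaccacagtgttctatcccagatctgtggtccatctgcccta
Folr2: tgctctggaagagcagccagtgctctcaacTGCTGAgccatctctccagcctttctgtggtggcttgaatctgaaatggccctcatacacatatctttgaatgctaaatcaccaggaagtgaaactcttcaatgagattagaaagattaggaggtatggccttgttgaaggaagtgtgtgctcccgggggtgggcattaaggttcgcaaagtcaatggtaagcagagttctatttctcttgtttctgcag
Cbr2: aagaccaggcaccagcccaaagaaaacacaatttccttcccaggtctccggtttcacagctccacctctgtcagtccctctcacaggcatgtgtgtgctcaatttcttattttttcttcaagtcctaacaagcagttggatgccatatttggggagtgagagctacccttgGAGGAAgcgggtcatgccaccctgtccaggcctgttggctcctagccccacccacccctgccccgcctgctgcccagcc
Gas6: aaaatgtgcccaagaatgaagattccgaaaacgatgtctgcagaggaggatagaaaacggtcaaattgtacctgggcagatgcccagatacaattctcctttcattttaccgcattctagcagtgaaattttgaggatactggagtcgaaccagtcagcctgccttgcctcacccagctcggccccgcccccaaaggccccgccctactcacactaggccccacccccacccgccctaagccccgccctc
The Fcrls window held 1 match of each motif, the Folr2 window 1 TGCTGA match, the Cbr2 window 1 GAGGAA match, and the Gas6 window held neither string. Among 32851 mouse promoter windows of this length, 23.3% held GAGGAA and 16.1% held TGCTGA. A match is a string of letters and not a bound site.

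Folr2 and Fcrls macrophages numbered 272 of 1664 gated macrophages in WT and 12 of 1290 in the library labelled Siah2-/-. The WT cells held 6686 to 47799 UMIs with a median of 11911, and 3576658 UMIs in all, so that 3 UMIs of a gene are 0.839 CPM. The 12 cells of the other library held 5266 to 24676 UMIs with a median of 12341, and 156512 in all, so that 3 UMIs are 19.2 CPM. Values from those 12 cells are given, but single cells decided several of them, as stated beside each.

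The cells were checked against markers of macrophages and of other cell types. C1q transcripts, which macrophages make, were found in 269 of 272 WT cells and in all 12 cells of the other library, and Ptprc, which encodes CD45, in 219 and 11. Of 12 macrophage marker genes, an average of 10.2 was detected per WT cell and 10.7 per cell labelled Siah2-/-. In the other sets of WT cells this average ran from 7.86 to 9.64. These genes therefore bear on macrophage identity and do not set the group apart. Of other markers of long-lived resident macrophages, Mrc1, Stab1, Pf4 and Sepp1 were abundant, as given below, and 3 chosen after their values were seen were at low levels. Lyve1, a hyaluronan receptor, stood at 1.68 CPM, Timd4, a phosphatidylserine receptor, at 1.68 CPM and Cd163, the haemoglobin scavenger receptor, at 7.27 CPM in the WT cells. Transcripts of other cell types were present in some cells. UMIs of 3 or more of 10 fibroblast genes were found in 23 WT cells and in none of the 12, against 70 of 1392 and 13 of 1278 other macrophages. Those 23 cells lie mostly at the weak end of the group, since 22 of them had fewer than 2 of the 4 markers. UMIs of 2 or more T or NK cell genes were found in 104 and 9 cells, against 769 and 1012 of all gated macrophages. A single WT cell held 157638 CPM of mast cell transcripts and another held 308 of the 321 S100a8 UMIs of the WT group.

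The set that chose the cells was unevenly detected within the WT group, which is a description of the rule. All 4 markers were detected in 94 WT cells, 3 in 61, 2 in 45, 1 in 46 and none in 26, of which 16 had the fibroblast genes. Among the other WT macrophages 1082 of 1392 had none of the markers and 8 had all 4. In the library labelled Siah2-/- no cell had all 4, 4 cells had 3, 2 cells had 2, 5 had 1 and 1 had none. Fcrls was the most frequent in WT, found in 226 cells and as the only marker in 34. Gas6 was found in 181, Folr2 in 158 and Cbr2 in 130 WT cells, and 148 of the 158 cells with Folr2 also had Fcrls. Among the 12 cells the order was different, with Gas6 in 7, Folr2 in 6, Fcrls in 5 and Cbr2 in 3.

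The margin by which the set led was wide in some cells and narrow in others. In WT the z-score of the set had a median of 2.06 and reached 6.09, and its lead over the next set had a median of 1.35. The lowest z-score was -0.350 in both libraries, in cells without any of the 4 transcripts. Those cells were members because every other set scored lower still. The lead was under 0.5 in 77 of 272 WT cells and in 6 of 12 cells labelled Siah2-/-, where the median lead was 0.471. The next set was the cell cycle set in 129 WT cells, the interferon set in 74 and the Mgl2 set in 48. Just inside the rule, 3 WT cells had z-scores of 0.841, 0.590 and 0.163 against 0.837, 0.577 and 0.148 for the next set. Just outside it, 3 WT cells had 0.543, 0.691 and 0.543 against 0.544, 0.693 and 0.555. Another 125 WT and 34 cells labelled Siah2-/- lay less than 0.5 behind.

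The levels of the 4 markers in the group restate the rule, which chose the cells by them, and are given as a description beside the background in other cells and in empty droplets. Fcrls was at 674 CPM (648 to 702) in the WT group, 46.5 CPM in the other WT macrophages, 54.6 CPM in empty WT droplets of at most 100 UMIs and 1.91 CPM in WT T cells, taken as cells with at least 2 of the 3 Cd3 genes and no Csf1r. Folr2 was at 235 CPM in the group and 8.61 in the other macrophages, Cbr2 at 162 and 5.25, and Gas6 at 217 and 8.61. A Fcrls UMI was found in 83.1% of the WT group, 209 of the 1392 other WT macrophages and 2.33% of T cells, and after thinning every cell to 4000 UMIs in 70.2%, 7.11% and 0.436%. Median depths before thinning were 11911, 9864 and 9560.5 UMIs. Among the other sets of WT cells the cycling macrophages came closest, with 133 CPM of Fcrls and 26.3 CPM of Folr2.

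The group was 17.6-fold rarer among gated macrophages of the library labelled Siah2-/-. It made up 16.3% (14.6 to 18.2, exact binomial interval) of gated WT macrophages and 0.930% (0.482 to 1.62) in the other library, a log2 ratio of -4.14 (-4.96 to -3.31). Of all analysed cells it made up 6.03% and 0.216%. In the same libraries the Arg1 set led 5.47% and 33.1% of gated macrophages, the Mgl2 set 37.7% and 25.3%, the interferon set 18.8% and 15.2%, the Chil3 set 8.53% and 20.3% and the cycling set 13.2% and 5.19%. The bar chart of shares by leading set sets these side by side.

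**Figure D1:**
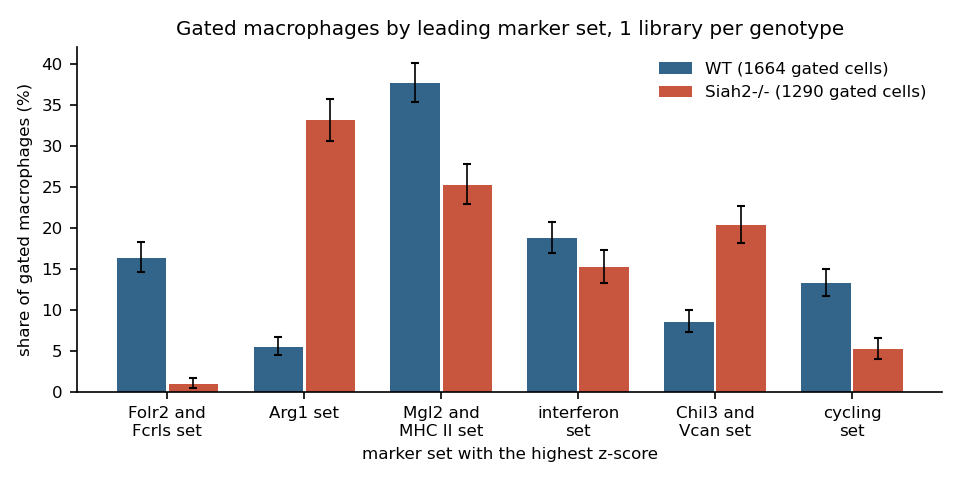
Share of gated macrophages (%) led by each of the 6 marker sets, in 1664 WT cells (blue) and 1290 cells of the library labelled Siah2-/- (red). Bars are shares with exact 95% binomial intervals (counting error only, 1 library each), and the Folr2 and Fcrls set stands at 16.3% and 0.930% and the Arg1 set at 5.47% and 33.1%.

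The size of this difference depended on how the rule was applied. With z-scores within each library, which sets each library against itself, there were 222 WT and 79 cells labelled Siah2-/-, a log2 ratio of -1.12. With the rule applied after thinning every cell to 4000 UMIs there were 271 of 1664 and 37 of 1626 gated cells (-2.84). Without gated cells that held UMIs of 2 or more T or NK cell genes there were 135 and 1 (-5.39). Leaving out 1 of the 4 markers gave log2 ratios from -3.90 to -3.53. When barcodes down to 1000 UMIs were taken, 379 of 2734 and 34 of 1707 gated barcodes were members (-2.80). The direction was the same in each of these.

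The same 4 genes can also be counted without the gate and the z-scores, which is no independent support, since the rule used them. Of all analysed cells, 10.9% (9.97 to 11.8) in WT and 1.33% (1.05 to 1.67) in the other library had 2 or more of the 4 markers, 490 and 74 cells. Depth differed between the libraries, with a median of 11435 UMIs per analysed cell in WT and 8699 in the other. After every cell had been thinned to 4000 UMIs, a step added after seeing the data, 6.74% (6.02 to 7.51) and 0.360% (0.220 to 0.555) had 2 or more markers. All 4 markers were found in 188 WT cells and in 5 of the other library before thinning. Most of these cells were not in the group: of the 490, 200 were members, 68 were other gated macrophages and 222 were outside the gate, where 156 had Cd3g, 151 Cd3d and 123 Cd3e. The part of mixed droplets in the counts outside the gate was not tested.

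The marker transcripts themselves differed between libraries across the whole gate. Fcrls was at 159 CPM in gated WT macrophages and 4.38 CPM in those labelled Siah2-/-, a log2 ratio of -5.18 (-5.60 to -4.79). Folr2 was at 49.3 and 6.66 CPM (-2.89), Cbr2 at 33.4 and 3.33 CPM (-3.33) and Gas6 at 46.0 and 4.63 CPM (-3.31). Fcrls was also lower in the other macrophages, which the set did not lead, at 46.5 and 3.37 CPM (-3.79, -4.28 to -3.33), where Folr2 had a log2 ratio of -0.88 (-1.35 to -0.42). Within the group Fcrls was at 674 CPM in WT and 83.1 CPM in the other library, from 13 UMIs in 5 of 12 cells, while Folr2 was at 235 and 160 CPM. Empty droplets, which carry free RNA, held 54.6 and 8.22 CPM of Fcrls.

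Genes outside the rule were compared between the group and the other macrophages of the same library. A gene is called higher or lower here when its summed CPM differed by at least 2-fold, with an exact conditional interval of the log2 ratio that does not include 0, among genes with at least 20 UMIs. In WT 468 of 11364 genes (4.12%) were higher and 421 (3.7%) lower. In both libraries at once 68 of 10160 genes (0.669%) were higher and 81 (0.797%) lower. The cells were chosen by expression, and the comparison cells were led by other programmes, so these ratios describe the group and are no test of it. Genes named from WT alone were chosen after their values had been seen.

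Most resident macrophage genes were higher in the WT group. Of 21 measured genes, 17 were higher in the WT group and none lower, with a median log2 ratio of 1.90 against 0.04 over all genes. In the library labelled Siah2-/-, where 3.44% of all genes were higher and 2.32% lower, 9 of 18 were higher, with a median of 1.24. Mrc1, Pf4, Sepp1, Stab1, Ccl8, Maf, Fcgrt and Wwp1 were higher in both. Stab1, a scavenger receptor that clears dying cells and matrix fragments, headed the genes chosen for their rank in both libraries, at 276 CPM in the WT group and 71.2 in the other macrophages (log2 1.95, 1.83 to 2.08), and at 319 and 61.9 CPM in the other library (2.37). Mrc1, the mannose receptor, was at 266 and 52.2 CPM in WT (2.35), with a UMI in 210 of 272 cells. Sepp1, the selenium carrier protein, was at 1669 and 448 CPM (1.90), and Maf, a transcription factor of resident macrophages, at 211 and 71.0 CPM (1.57).

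Among genes with at most 20% of the UMIs of the WT group in 1 cell, the largest ratios in WT were those of Fcna, Igf1, Ccl8 and Npl. Fcna, a ficolin that recognises sugars on microbes, was at 29.9 CPM in the group and 0.55 CPM in the other WT macrophages (log2 5.77, 4.79 to 6.93), with a UMI in 53 of 272 cells. Igf1, a growth factor that resident macrophages supply to tissue, was at 62.1 and 2.99 CPM (4.37, 3.92 to 4.85). Npl, a lyase of sialic acid breakdown, was at 124 and 7.51 CPM (4.04). The highest WT cell held 15 Fcna, 12 Igf1 and 17 Npl UMIs, while the median cell held none of them. In the library labelled Siah2-/- the 12 cells held 6 UMIs of Fcna, all in 1 cell, 6 of Igf1 and 10 of Npl.

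Chemokines that attract monocytes were higher in the group in both libraries, all 4 of 4 measured. Ccl8 was at 1412 CPM in the WT group and 85.1 CPM in the other macrophages (log2 4.05, 3.97 to 4.14), and at 5367 and 110 CPM in the other library (5.61), where 502 of 840 UMIs came from 1 cell. Ccl7 was at 1679 and 531 CPM in WT (1.66), Ccl12 at 2562 and 1198 CPM (1.10) and Ccl2 at 1343 and 639 CPM (1.07). Pf4, a platelet and macrophage chemokine, was at 1241 and 319 CPM (1.96). Of 16 other chemokine genes in WT, Ccl24, Pf4, Cxcl1 and Cxcl12 were higher and Ccl5, Ccl17 and Ccl22, which attract T cells, lower. Without the cells that had 3 or more fibroblast genes, 2 of 15 were higher and 3 lower, beside 421 and 427 of 10520 genes.

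Genes for complement, uptake and digestion of material differed by smaller ratios. C1qa was at 7751 CPM in the WT group and 4877 in the other macrophages (log2 0.67), and C1qc at a log2 ratio of 0.80. Apoe, the lipid carrier, was at 25036 CPM in the group, 0.89 higher on the log2 scale. The cathepsin gene Ctsb had a log2 ratio of 1.19 in WT and 1.32 in the other library, Ctsd, another cathepsin gene, 1.59 and 1.23, and the lysosome membrane gene Cd63 1.65 and 2.05. Of 16 lipid-associated macrophage genes 4 were higher in WT (Gpnmb, Cd63, Abca1 and Ctsd), and of 15 iron and haem genes 4 were higher (Cd163, Hmox1, Slc40a1 and Cp). Hmox1, which breaks down haem, was at 245 and 60.5 CPM in WT (2.01), with 30.9% of the UMIs in 1 cell. Of 20 genes for uptake of apoptotic cells outside the rule, Stab1 and Abca1 were higher in WT and none was lower. Among 11 microglia genes P2ry13, Gpr34 and Olfml3 were higher in WT, with Olfml3 at 205 and 77.2 CPM (1.41).

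Most MHC class II and monocyte genes measured were lower in the WT group, while nearly all MHC class I genes differed by less than 2-fold. The rule placed cells led by the Mgl2 and MHC class II set, and by the Chil3 and Vcan set, among the other macrophages. Lower levels of genes expressed along with those sets therefore follow in part from the rule. Of 15 MHC class I genes only H2-Q6 was lower in WT, none was called in the other library, and the WT median log2 ratio was -0.49. Of 7 MHC class II genes outside the rule, 5 were lower in WT, with a median log2 ratio of -1.67. H2-Aa was at 1994 CPM in the group and 8021 CPM in the other WT macrophages (-2.01, -2.04 to -1.97), and at 2415 and 8001 CPM in the other library (-1.73). Cd74, the invariant chain, was at 7778 and 24741 CPM in WT (-1.67). Of 16 monocyte genes 9 were lower in WT and none higher. Ly6c2, the marker of inflammatory monocytes, was at 92.5 and 1087 CPM (-3.55), and Ccr2, the receptor for Ccl2, at 101 and 377 CPM (-1.89). Plac8, Ly6i and Mcemp1 were lower in both libraries, with WT log2 ratios of -3.01, -3.33 and -3.76. Of 27 cytokine genes in WT, Il1b was at 196 and 849 CPM (-2.12), and Il12b and Vegfa were also lower, while Igf1, Il1a, Il10, Pdgfc and Areg were higher. Il10 stood at 4.75 CPM in the WT group, under the 25.8 CPM of empty WT droplets.

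Cell cycle genes had no single direction. Of 23 G2 and M phase genes outside the rule, 19 were lower in the WT group than in all other macrophages, but this rests on the cycling set: against that set 23 of 23 were lower, while against the Arg1, Mgl2, interferon and Chil3 sets 8 of 19, 13 of 20, 9 of 21 and 10 of 19 were higher and none lower. Of all genes 10.2%, 10.8%, 6.95% and 14.2% were higher against those 4 sets and 3.88%, 3.12%, 5.06% and 6.32% lower, and against the cycling set 2.87% were higher and 9% lower. In the library labelled Siah2-/- the median log2 ratio of the G2 and M phase genes measured was -0.48 against the Arg1 set and -0.56 against the Mgl2 set, in each case from 8 genes. Without the cells that had 3 or more fibroblast genes, 8 of 23 were lower than in all other macrophages. None of 25 S phase genes passed 2-fold in either direction against all other macrophages, and against the Arg1, Mgl2, interferon and Chil3 sets 20 of 24, 8 of 25, 3 of 25 and 20 of 24 were higher and none lower. Against the cycling set none of 25 was higher and 9 were lower. Interferon-gamma response genes had 4 of 22 lower in WT and 12 of 22 lower in the library labelled Siah2-/-. None of 22 oxidative phosphorylation genes was called, and their median log2 ratio was 0.09. The plot of medians per list shows the lists in order.

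**Figure D2:**
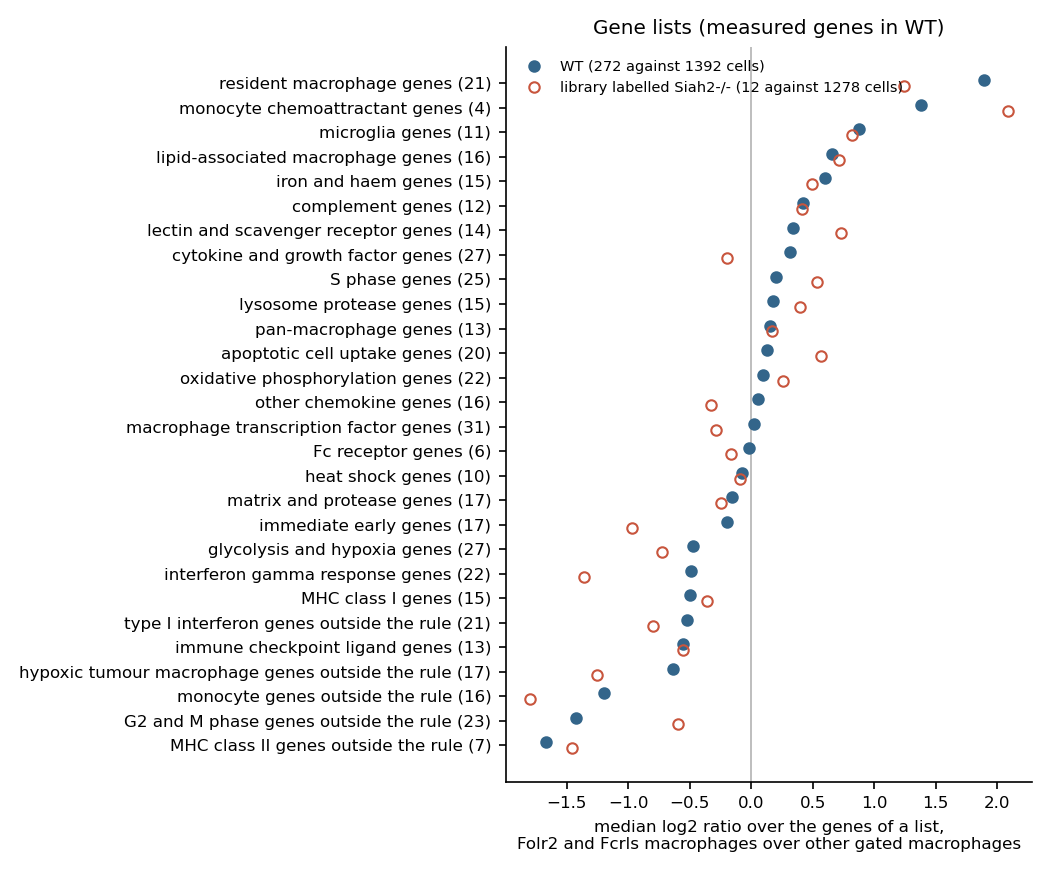
Median log2 ratio of Folr2 and Fcrls macrophages over the other macrophages for each gene list, with the number of genes measured in WT in brackets. Filled blue points are WT (272 against 1392 cells) and open red points the library labelled Siah2-/- (12 against 1278 cells), and the lists run from resident macrophage genes at 1.90 in WT to MHC class II genes at -1.67.

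Levels across the 6 sets placed the group apart from each other set for several genes. Against the Arg1, Mgl2, interferon, Chil3 and cycling sets of WT cells, 14, 18, 18, 16 and 17 of 21 resident macrophage genes were higher in the group, and at most 1 was lower, beside the shares of all genes given above for the same comparisons. Ccl8 was at 28.4 CPM in the Arg1 set, 43.5 in the Mgl2 set, 49.1 in the interferon set, 16.0 in the Chil3 set and 215 in the cycling set of WT cells, all under the 1412 CPM of the group. Mrc1 ran from 13.6 CPM in the Chil3 set to 72.0 CPM in the cycling set and 266 CPM in the group. H2-Aa was lowest in the group, at 1994 CPM, next to 3173 CPM in the cycling set, and highest in the Mgl2 set, at 12023 CPM. Since other MHC class II genes helped to choose the Mgl2 set, this order follows in part from the rule. F13a1, which encodes a coagulation factor subunit, was not particular to the group, at 176 CPM beside 143 CPM in the Chil3 set of WT cells and 206 CPM in that of the other library.

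**Figure D3:**
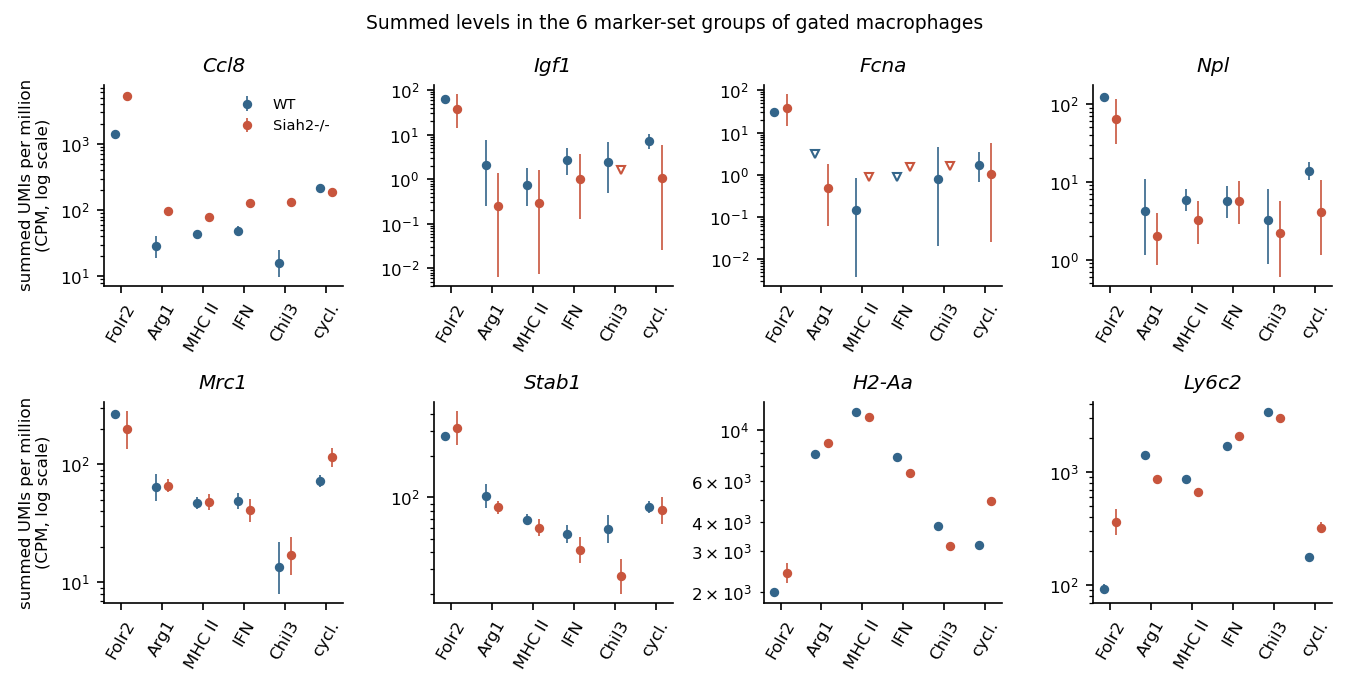
Summed CPM (log scale) of 8 genes in the 6 marker-set groups of gated macrophages, WT in blue and the library labelled Siah2-/- in red, with exact 95% Poisson intervals. Open triangles mark groups without a UMI, at the level of 3 UMIs, and Ccl8, Igf1, Fcna, Npl, Mrc1 and Stab1 stand highest and H2-Aa lowest in the Folr2 and Fcrls group of both libraries. In the library labelled Siah2-/- all Fcna UMIs and most Ccl8 UMIs of that group each came from a single cell, which the intervals do not cover.

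The WT group was not uniform, and levels of genes outside the rule differed with the number of markers in a cell. From cells with 0, 1, 2, 3 and 4 markers, Ccl8 was at 24.4, 138, 260, 1176 and 3053 CPM. Mrc1 was at 9.75, 102, 189, 270 and 453 CPM. Npl was at 2.44, 11.5, 22.2, 84.0 and 278 CPM. C1qa levelled off, with 2240 CPM at 0 markers and 8695, 9296 and 9187 CPM at 2, 3 and 4. H2-Aa was highest in between, at 249, 3509, 3776, 2301 and 927 CPM, and Ccr2 was at 34.1, 252, 178, 63.0 and 41.5 CPM. Crabp1, a retinoic acid binding protein gene, was highest in cells with no marker, at 3101 CPM, where the fibroblast genes also lie. Of the 26 cells without a marker, 16 had the fibroblast genes, so every level at 0 markers comes in part from such cells. A cell without a marker was kept only where each other set, the Mgl2 and MHC class II set included, scored lower still. Low H2-Aa at 0 markers therefore follows in part from the rule. The cells all come from 1 library, so these steps are a description.

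**Figure D4:**
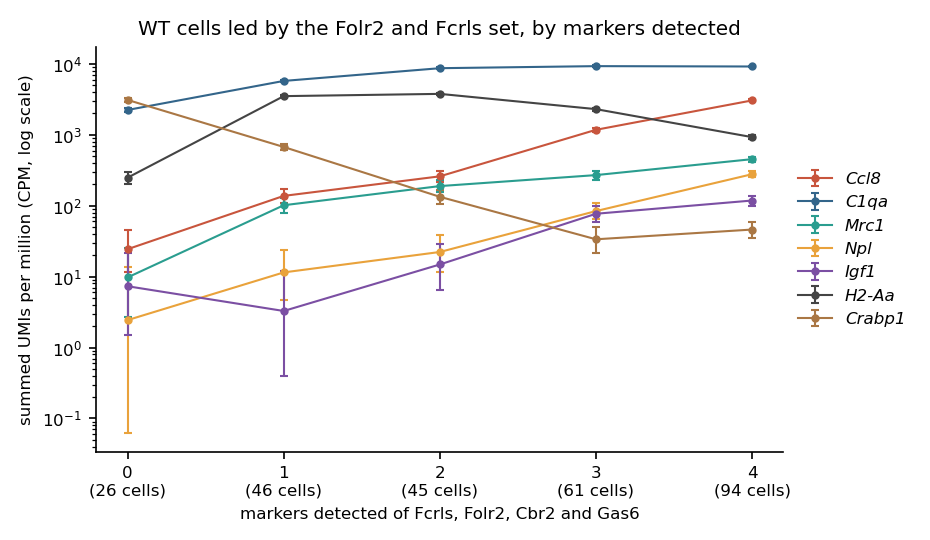
Summed CPM (log scale) of 7 genes in WT cells of the group with 0 to 4 of the markers Fcrls, Folr2, Cbr2 and Gas6 detected, with the number of cells under each point and exact 95% Poisson intervals. Ccl8 goes from 24.4 CPM at 0 markers to 3053 CPM at 4, while H2-Aa goes from 3776 CPM at 2 markers to 927 CPM at 4.

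Genes that were higher in the WT group were also compared between libraries over all gated macrophages. They were chosen in WT cells that made up 16.3% of one gate and 0.930% of the other, so lower levels over the other gate follow largely from the choice, and the counts are a description. Of the 468 genes that were higher in the WT group, 238 were lower and 7 higher in that library over all gated macrophages, where 11.2% of all genes were lower and 4.03% higher. Their median log2 ratio was -1.05, against -0.12 over all genes. Igf1 was at 13.6 and 0.893 CPM (-3.93, -4.95 to -3.06), Fcna at 5.82 and 0.731 CPM (-2.99) and Npl at 28.3 and 3.90 CPM (-2.86). In the other macrophages alone 136 of the 468 were lower, where 9.8% of all genes were, and 16 higher, where 3.59% were, with a median of -0.64 against -0.11. Of the 68 genes that were higher in the group in both libraries, 25 were lower and none higher over the gate, with a median of -0.78, and 14 were lower and 1 higher in the other macrophages, with a median of -0.48. Not all genes of the group followed. Ccl8 had a log2 ratio of -0.87 over the gate and 0.37 in the other macrophages, Mrc1 of -0.71 and 0.04, and F13a1 of 0.61 and 1.42. The gate value of Ccl8 rests in part on the single cell that held most Ccl8 UMIs of the group in the library labelled Siah2-/-.

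Within the group, the libraries differed in 211 of 8631 genes higher (2.44%) and 175 lower (2.03%) in the one labelled Siah2-/-, from 12 cells against 272. For transcripts that were higher in the group the log2 ratio, labelled Siah2-/- over WT, was 0.21 (-0.23 to 0.62) for Stab1, -0.42 (-0.99 to 0.09) for Mrc1, 0.25 for Pf4, -0.16 for C1qa and -0.64 for Apoe. An interval that includes 0 does not show that the levels are equal. Of 21 resident macrophage genes Ccl8 was higher and Ltc4s, C4b and Fcgrt lower. Ccl8 was 1.93 higher on the log2 scale, and 0.74 higher without the cell that held 502 of its 840 UMIs. Hmox1 was 1.80 higher, and lower (-0.84) without the cell that held 113 of 133 UMIs.

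Among genes chosen for rank and even spread over cells, Glrx, a glutaredoxin that repairs oxidised thiols, was at 162 CPM in WT and 460 CPM in the other library (log2 1.50, 1.13 to 1.86), with UMIs in 11 of 12 cells. Gpatch4, Gnl1, Sppl3 and Lrrc58 had larger ratios, from 1.57 to 1.77, from fewer UMIs. The lowest were Crabp1, Id3, Sparc, Serpinf1, Sparcl1, Ltc4s, Serpinh1, Mgp, Aqp1, Tsc22d1, Pcolce and Ptn, several of which encode matrix proteins of fibroblasts. With the rule on thinned counts the ratios of Crabp1 (0.35), Id3 (1.15), Pcolce (0.57) and Serpinh1 (0.66) turned to above 0, and without the fibroblast-gene cells that of Ptn did (0.21). For 11 of these 12 more than 80% of the WT UMIs lay in the 23 cells with fibroblast genes, and for Ltc4s, which encodes leukotriene C4 synthase, 33.0%. Ltc4s was at 119 CPM in WT and without a UMI in the 12 cells, at least 6.23-fold lower against the level of 3 UMIs. The WT T cells held 1116 CPM and the empty WT droplets 1756 CPM of Mgp, against 1377 CPM in the WT group. Free RNA was estimated at 2.26% of the UMIs of the WT group and 6.32% of those of the 12 cells.

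The log2 ratio between libraries in the group differed from that in the other macrophages by at least 1, with an interval that does not include 0, in 359 of 6074 genes (5.91%). Ccl8 had a difference of 1.56 (1.41 to 1.71), resting on the 1 cell above. Gpatch4 had a difference of 2.69 (1.72 to 3.67), from 10 UMIs in 7 of the 12 cells. The other largest differences above 0 were those of Fam76b, Ch25h, Ifitm1 and Mmp2, and 108 of 126 Ifitm1 UMIs came from 1 cell. Below 0 they were those of S100a8, S100a9, Slpi, Cxcl2, Crabp1 and Mgp.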

How the data were processed

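Single-cell 3′ RNA sequencing (10x Genomics v2 chemistry) was analysed for 1 WT and 1 Siah2-/- library. The deposited matrices hold UMI counts (unique molecular identifiers) for 27998 genes and 737280 barcodes, made by the authors with bcl2fastq and Cell Ranger on mm10/GRCm38 (versions not given in the sources used here), with PCR copies collapsed. Over all barcodes they held 98517832 UMIs in WT and 85396790 in the other library. The deposited normalized table gives the natural log of 1 plus UMIs per 10000, computed by the authors, for 14654 genes and for 4512 WT and 5563 cells labelled Siah2-/-, after removal of cells in the bottom and top 2% of detected genes and cells over 10% mitochondrial transcripts. The lowest UMI count of a kept cell was 6670 and 4896, and 34 barcodes occur in both libraries. A deposited table of raw counts differed from the matrices only in genes it lists at 0, so the matrices were used.

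The natural log values chose the cells and the summed counts gave every level. Levels are UMIs per 1e+06 UMIs of the summed cells (CPM) with exact Poisson intervals, ratios have exact conditional binomial intervals, shares exact Clopper-Pearson intervals, all at 95%, and a ratio of shares and a difference of ratios normal intervals on the log scale, with 0.5 added to counts of 0. They cover counting error only. No doublet caller was run on the gated cells. Steps across genes were tested on simulated data. The simulated counts were Poisson draws from summed counts without differences between cells. They do not cover genes with most UMIs in 1 cell. Analyses used Python 3.11.15, numpy 2.4.6, scipy 1.17.1 and pandas 2.3.3, and edgeR 4.0.16 for TMM factors in an alternative.

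The members, gene lists and alternatives were chosen with earlier results of these data known. Genes compared with the other macrophages were named by the smaller ratio of both libraries, with at least 50 UMIs and at most 20% of them in 1 cell; genes compared between libraries and differences of ratios were named by rank with the same minimum of UMIs, and from the lists up to 6 genes with the most UMIs or the largest ratio. Genes named from WT alone were added after the values had been seen. Alternatives changed the z-scores, the lead, the number of markers, the depth, the filters on counts, the scaling, the free RNA and the cells with transcripts of other cell types.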

Additional observations from a re-analysis of the deposited data

Results flagged for a closer look

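The log2 ratio between libraries, labelled Siah2-/- over WT, differed between Folr2 and Fcrls macrophages and the other macrophages beyond counting error in many genes. The difference was at least 1 in size in 359 of 6074 genes (5.91%), and 6 genes were picked for a closer look. The difference was 2.69 (1.72 to 3.67) for Gpatch4, from 10 UMIs in the 12 cells, and 2.35 (1.71 to 2.98) for Ch25h, with 58.3% of the UMIs of the 12 cells in 1 cell. With the rule on thinned counts that of Gpatch4 was 0.68 and that of Ch25h turned to -0.26. It was -10.35 for S100a8 and -9.31 for S100a9, where 96.0% and 91.0% of the UMIs of the WT group lay in 1 cell and the 12 cells held none. These values depend on the 0.5 added to a count of 0 and are no bounds, and with the 12 cells set at 3 UMIs they were -7.79 and -6.76. It was -5.83 for Slpi, with 92.5% of its WT UMIs in the 23 cells that carried fibroblast genes. It was -3.21 (-4.56 to -1.87) for Cxcl2, a neutrophil chemokine gene, from 4 UMIs in the 12 cells, and turned to 1.41 among barcodes with at least 1000 UMIs. The part of single cells in these differences was not tested.

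Barcodes with at least 1000 UMIs that the authors did not keep were also sorted by the same rule. It found 103 of 1070 gated barcodes in WT (9.63%, 7.93 to 11.6) and 22 of 417 in the library labelled Siah2-/- (5.28%, 3.34 to 7.88). At least 2 of the 4 markers were detected in 44 of the 103 and in none of the 22, which had a median of 2006.5 UMIs against 4720 in WT. Ccl8 was at 1449 CPM in those 103 barcodes and 22.2 CPM in the other gated barcodes not kept in WT. In the library labelled Siah2-/- Ccl8 was at 34.6 CPM in the 22 barcodes, only 2 of which held a Ccl8 UMI, and at 82.7 CPM in the others. These are too few UMIs to say which level was higher.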

How the results depend on the processing

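The log2 ratio of the group's share was -4.14 and kept its sign in every alternative run. It was -1.12 with z-scores within each library, -2.84 with the rule on thinned counts, -5.39 without cells holding 2 or more lymphocyte genes and -2.80 among barcodes with at least 1000 UMIs. With the WT library alone, 468 genes were higher and 421 lower in the group, in place of 68 and 81. Without lymphocyte-gene cells, 6 and 9 genes were past 2-fold in both libraries, since 1 cell labelled Siah2-/- was left, and no single-gene value was computed from that cell. Between libraries within the group, the counts of 211 higher and 175 lower became 332 and 606 with z-scores within each library. Only 91 and 103 of these were among the 211 and 175. Higher genes numbered 327 with thinned counts, 123 without lymphocyte-gene cells and 106 with at least 100 UMIs. Of these, 74, 14 and 106 were among the 211. With thinned counts 193 genes were lower, 25 of them among the 175. Lower genes numbered 96 with a lead of at least 0.5, 92 with 2 or more markers, 20 without lymphocyte-gene cells and 104 without cells holding fibroblast genes. Of these, 36, 38, 0 and 80 were among the 175. Differences of ratios numbered 569 without lymphocyte-gene cells in place of 359. Of 1807 single-gene values under alternatives, 1726 kept direction and size, 63 moved and 18 changed sign. All 696 WT values of the group over the other macrophages were among the 1726. The ratio between libraries within the group changed sign for Ccl8 (-0.36) and Hmox1 (-0.20) with z-scores within each library, for Crabp1 (0.35), Id3 (1.15), Pcolce (0.57) and Serpinh1 (0.66) with the rule on thinned counts, for Ptn (0.21) without fibroblast-gene cells and for H2-Aa (-0.21) among barcodes with at least 1000 UMIs. The difference of ratios changed sign with a lead of at least 0.5 for Crabp1 (0.22), Ifitm1 (-0.89) and Mgp (1.86), with 2 or more markers for Crabp1 (0.010), Ifitm1 (-1.09) and Mgp (1.67), with thinned counts for Ch25h (-0.26), Crabp1 (2.19) and Mgp (1.66), and among barcodes with at least 1000 UMIs for Cxcl2 (1.41). The cause of these changes was not tested. The removal of fibroblast-gene cells, the WT library alone, the denominator of all analysed cells and the thinned count of cells with 2 or more markers were chosen after seeing the data. No paired analysis was possible because each genotype has 1 library. With 156512 UMIs in the 12 cells, a gene at 19.2 CPM has 3 UMIs, and lower levels rest on 1 or 2.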
